A study of Bos taurus with 12 samples.

Results

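The machinery that ends messenger RNAs with a poly(A) tail was followed in cattle embryos through 10 genes: PAPOLA, PABPC1, PABPN1, CPSF1, CPSF2, CPSF3, CPSF6, CSTF1, CSTF2 and NUDT21. Members were all probe sets, the array's groups of short probes for 1 transcript, whose only gene symbol was one of these names. They covered 8 of the 10 genes, of 9155 named on the array, with 14 of its 24016 probe sets apart from controls. CSTF1 and NUDT21 had no probe set of that kind and are not analysed here. The set was built around PAPOLA, which was chosen by its measured intensity: it was higher in embryos of in vitro origin at both days. That origin difference is therefore described without a test, as is the comparison of its 2 sizes.

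RNA came from 12 pools of whole embryos on Affymetrix bovine arrays, 1 array per pool and 3 pools in each of 4 groups. Day 13 in vitro pools held 5 conceptuses that had begun as blastocysts made by in vitro fertilization and had grown in synchronized recipient heifers. Day 13 in vivo pools held 5 conceptuses from blastocysts of superovulated donors, grown in heifers in the same way, with 10 blastocysts placed in each recipient. Day 7 in vitro and Day 7 in vivo pools held 25 blastocysts each, frozen without transfer. Both Day 13 groups thus spent the days after Day 7 in a uterus, and in vitro or in vivo names where the blastocyst was made. Each pool is labelled a biological replicate and mixes all cell types of several embryos, so fewer cells of a type and less RNA per cell cannot be told apart.

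In the nucleus, the cleavage and polyadenylation specificity factor (CPSF) recognises the polyadenylation signal of a nascent transcript and cuts it, helped by the cleavage stimulation factor (CstF) and by cleavage factor I. A poly(A) polymerase, of which PAPOLA encodes the main nuclear form, then adds the tail, and the nuclear poly(A)-binding protein PABPN1 speeds the reaction and limits tail length. In the cytoplasm PABPC1 coats the tail, supports translation and sets the pace of deadenylation. Early embryos depend on tail length to control stored maternal messages before their own genome takes over.

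Levels are deposited log2 probe set intensities, where a difference of 1 is a 2-fold change. They compare arrays for the same probe set and not different probe sets with each other. A background of 3.39 was set from controls without a matching RNA in the sample. Of the 14 probe sets, 12 lay above it on at least 3 arrays. The other 2, PAPOLA's second probe set and 1 of 4 for PABPC1, lay at background on all 12 arrays and carry no information on these genes.

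The tissue labels were checked with marker genes. The epithelial keratins KRT8 and KRT18 were above background on all 12 arrays. The 13 measured trophoblast markers had a mean level of 10.42 to 11.24 per array in Day 13 in vitro pools and 9.27 to 9.73 in Day 13 in vivo pools, against 6.94 to 7.69 in Day 7 in vitro pools and 7.14 to 7.70 in Day 7 in vivo pools. Not every marker followed this order: the secreted TKDP1 averaged 14.57 and 14.55 at Day 13 against 6.40 and 6.93 at Day 7 (in vitro and in vivo), while PAG2 averaged 7.44 and 6.29 at Day 13 against 8.43 and 8.21 at Day 7.

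By mean level, markers of the other embryonic lineages ran the other way between the Day 13 origins. The 11 hypoblast and yolk sac markers had a mean level of 6.40 to 7.00 in Day 13 in vitro pools against 7.68 to 8.31 in Day 13 in vivo pools, and 3 epiblast markers 5.53 to 5.92 against 6.75 to 7.81. The widest gaps were those of APOA2, with 3.24 in Day 13 in vitro pools against 8.20 in Day 13 in vivo pools, and POU5F1, with 4.98 against 7.69. Not every marker followed: NID2 averaged 10.47 against 10.35, and SOX2 2.36 in both. HNF4A, AFP and TTR stayed at background on all arrays. At Day 7 the hypoblast markers ran from 6.47 to 6.69 in in vitro pools and from 5.89 to 6.26 in in vivo pools, and the epiblast markers from 4.89 to 6.34 and from 5.86 to 6.72.

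Of 9 measured blood and immune markers 7 stayed at background on all arrays, as did 6 of 9 endometrial or oviductal and 6 of 10 cumulus or granulosa markers. The exceptions above background on more than 1 array were HBB (7 arrays), CST6 (12), OVGP1 (9), STAR, HSD3B1 and HAS2 (12 each) and TNFAIP6 (4). HBB averaged 2.86 in Day 13 in vitro pools and 2.84 in Day 13 in vivo pools, against 7.27 in Day 7 pools of either origin. The part of all these genes in the results below was not tested.

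The array controls moved with the groups. The poly-A spike-ins, RNAs added before labelling, were low on 2 arrays: they read 9.27, 10.50 and 12.99 in Day 13 in vitro replicates 1, 2 and 3, and averaged 14.45 ± 0.17 (SD, n = 3) in Day 13 in vivo pools, 14.03 ± 0.64 in Day 7 in vitro pools and 14.63 ± 0.45 in Day 7 in vivo pools. The 3′ minus 5′ difference of GAPDH, which grows as labelling stops short of the 5′ end, averaged 3.10 ± 0.92 in Day 13 in vitro pools, 4.01 ± 1.01 in Day 13 in vivo pools, 3.69 ± 0.43 in Day 7 in vitro pools and 5.61 ± 0.04 in Day 7 in vivo pools. The hybridization spike-ins, another set of added controls, were also lowest on Day 13 in vitro replicates 1 and 2, at 10.38 and 10.84. They averaged 12.98 ± 0.29 in Day 13 in vivo pools, 12.17 ± 0.55 in Day 7 in vitro pools and 12.96 ± 0.38 in Day 7 in vivo pools. Each array had 41.3% to 42.0% of probe sets above background, and arrays of the same group had correlations of 0.963 to 0.991 over probe sets.

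PAPOLA, by a probe set for several transcripts of this 1 gene, read 8.56, 8.37 and 8.31 in the Day 13 in vitro pools, against 7.39, 7.41 and 7.17 in the Day 13 in vivo pools. At Day 7 it read 7.99, 8.18 and 8.06 in the in vitro pools, against 7.15, 6.75 and 6.96 in the in vivo pools. Every in vitro pool, at either day, lay above every in vivo pool of both days. The group means were 8.41 ± 0.13 (SD, n = 3) in Day 13 in vitro pools, 7.32 ± 0.13 in Day 13 in vivo pools, 8.08 ± 0.09 in Day 7 in vitro pools and 6.95 ± 0.20 in Day 7 in vivo pools.

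The in vitro minus in vivo difference of PAPOLA was 1.09 ± 0.11 (log2, SE) at Day 13 and 1.12 ± 0.11 at Day 7, which are 2.13-fold and 2.18-fold higher levels in the in vitro pools. No array enters both of these differences. They differed from each other by -0.03 ± 0.16, with an interval from -0.41 to 0.34. Over all alternatives tried, the difference ran from 0.76 to 1.20 at Day 13 and from 0.77 to 1.22 at Day 7. These values describe the pattern for which the gene was chosen and are no evidence for it.

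Ordered by level, the groups ran Day 13 in vitro, Day 7 in vitro, Day 13 in vivo and Day 7 in vivo, with no overlap between neighbours. The gaps were unequal. The lowest Day 13 in vitro pool stood at 8.31 against 8.18 for the highest Day 7 in vitro pool, and the lowest Day 13 in vivo pool stood at 7.17 against 7.15 for the highest Day 7 in vivo pool. Between these pairs lay a wide step, with no Day 7 in vitro pool under 7.99 and no Day 13 in vivo pool over 7.41.

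The size of PAPOLA's change with day was not part of its selection and was tested with limma over all probe sets. The tests used the same within-group spread as the origin contrasts that chose PAPOLA. Those favour a small spread, so the SE and p-values of the day tests may partly reflect the choice. The change was 0.34 ± 0.11 for Day 13 in vitro against Day 7 in vitro (limma, adjusted p = 0.140). It was 0.37 ± 0.11 for Day 13 in vivo against Day 7 in vivo (limma, adjusted p = 0.159). Neither passed the threshold of an adjusted p below 0.05. Averaged over both origins, a contrast added after the values were seen, the day difference was 0.35 ± 0.08 (limma, adjusted p = 0.0285), a 1.28-fold higher level at Day 13. That call was lost in 14 of 21 alternatives, with adjusted p-values up to 0.434, and 7 of these left out a single array: replicates 1 and 2 of both Day 13 groups, replicates 1 and 3 of Day 7 in vitro and replicate 3 of Day 7 in vivo, with values from 0.32 to 0.36. Centring the arrays on ribosomal protein genes turned the in vivo day difference to -0.03.

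**Figure D1:**
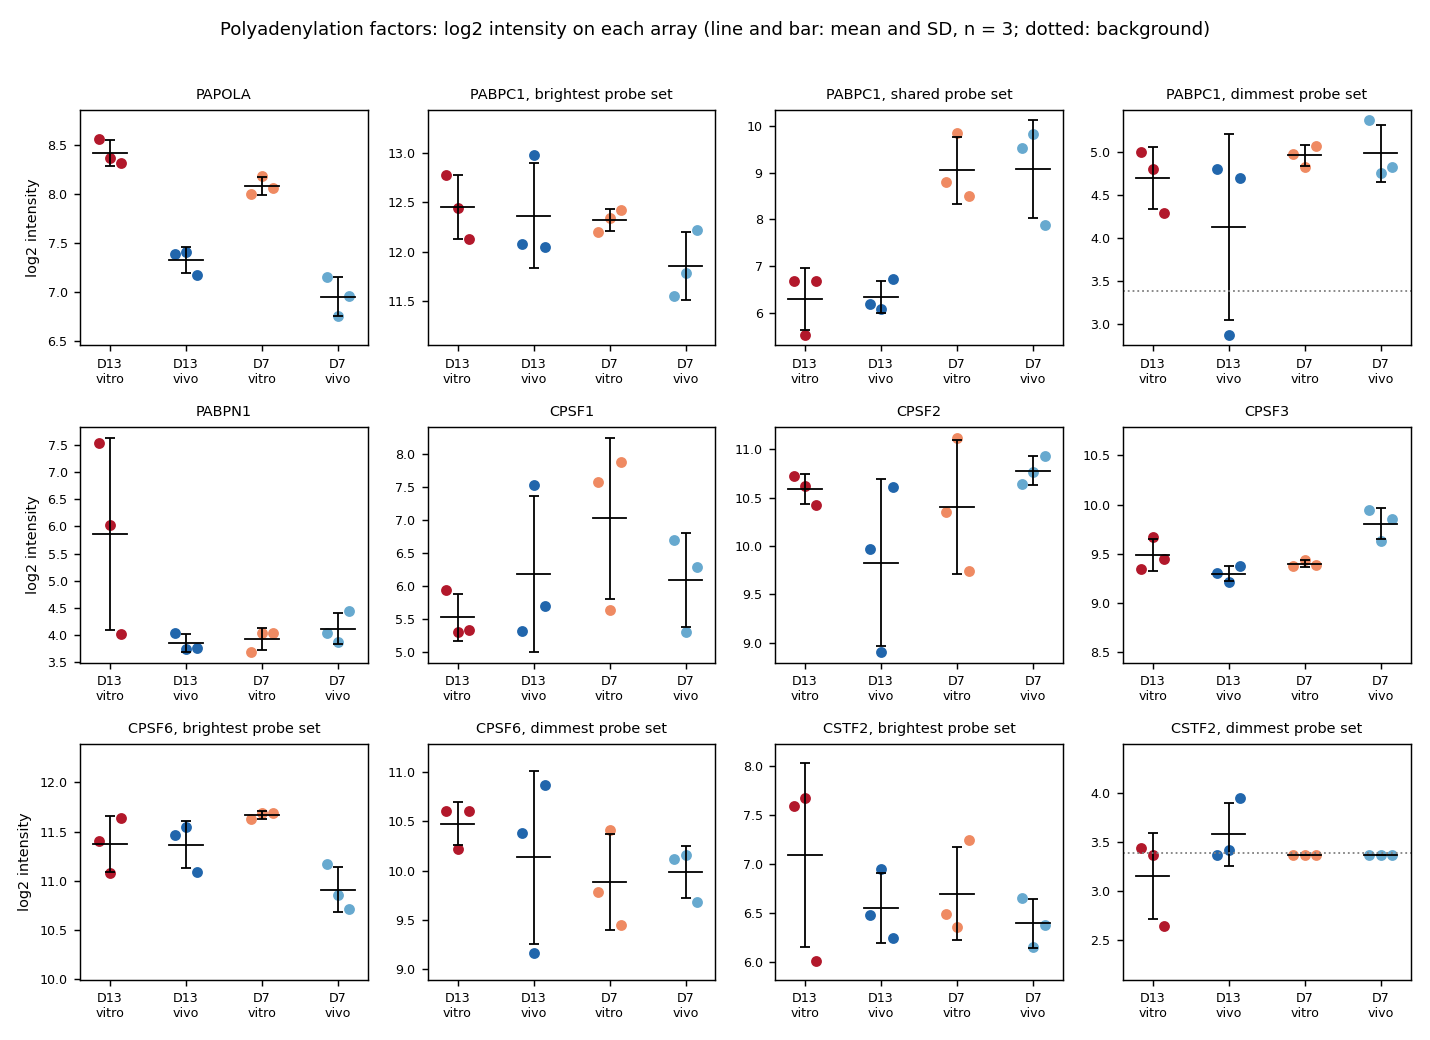
Log2 intensity (vertical axis, its own range in each panel) of the 12 polyadenylation probe sets above background on at least 3 arrays, in Day 13 in vitro pools, Day 13 in vivo, Day 7 in vitro and Day 7 in vivo pools. Points are arrays, the line and bar are the mean and SD of 3 arrays and the dotted line is the background of 3.39; PAPOLA keeps all in vitro pools at or above 7.99 and all in vivo pools at or below 7.41, and the shared PABPC1 probe set stands lower at Day 13.

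PAPOLA varied little within groups. Its pooled within-group SD was 0.144, and 2.96% of probe sets above background had a smaller one. The origin contrasts that chose PAPOLA favour a small within-group spread, so this value may partly reflect the choice. Among the other members only CPSF3 was as steady, at 0.124 (2.10%), while CPSF1 (0.935) and PABPN1 (0.907) were among the most variable, above 89.0% and 87.7% of probe sets.

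By group mean, PAPOLA fell from Day 13 in vitro over Day 7 in vitro and Day 13 in vivo to Day 7 in vivo. In that order the GAPDH 3′ minus 5′ difference rose, at 3.10, 3.69, 4.01 and 5.61. The cyclophilin difference also rose, at 3.92, 4.33, 4.36 and 4.86. So did the poly-A spike-ins, at 10.92, 14.03, 14.45 and 14.63. The EF1A 3′ minus 5′ difference rose as well, at -1.76, -1.21, -1.06 and -0.41, with an SD of 1.44 in Day 7 in vitro pools. The actin 3′ minus 5′ difference did not rise in that order, at 1.82, 1.73, 2.985 and 1.69. Single arrays did not all keep to the GAPDH order. Replicate 3 of Day 13 in vitro had a GAPDH difference of 4.17 with PAPOLA at 8.31. Replicate 2 of Day 13 in vivo had 2.85 with PAPOLA at 7.41. With the GAPDH difference as a covariate, PAPOLA's in vitro minus in vivo difference came to 1.03 at Day 13 and to 1.005 at Day 7. In the fit that takes the poly-A spike-ins as covariate it was 0.95 at Day 13 and 1.10 at Day 7. Without Day 13 in vitro replicates 1 and 2, with 1 array left in that group, the difference was 0.99 at Day 13. The spike-ins were lowest in Day 13 in vitro pools, so that covariate and that group cannot be fully told apart.

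**Figure D2:**
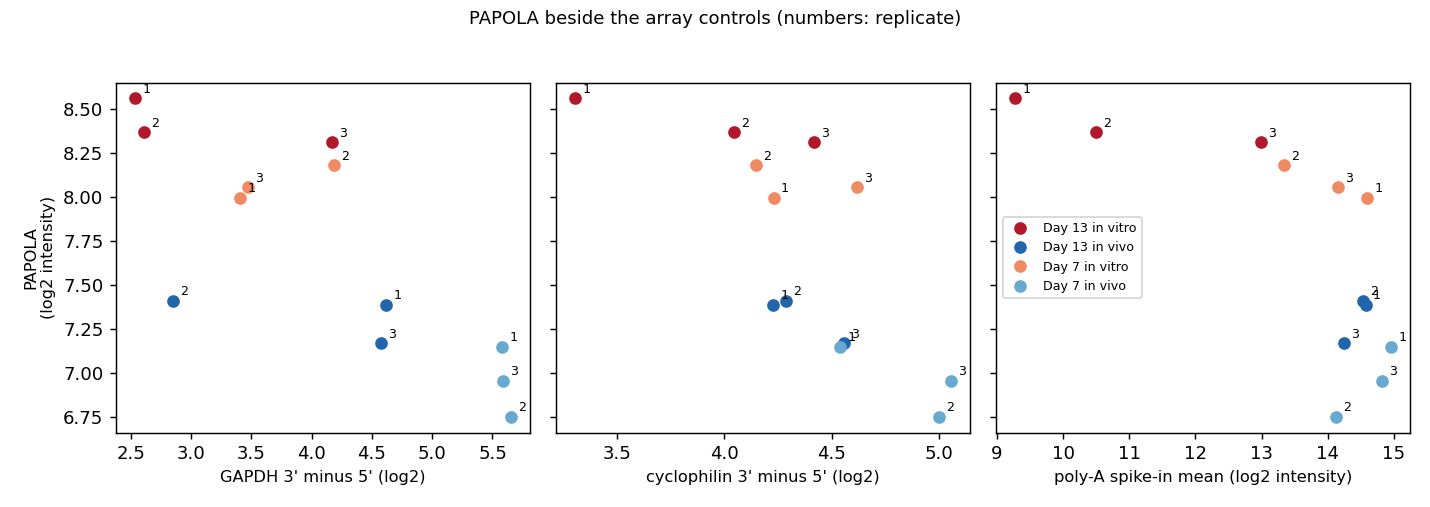
PAPOLA log2 intensity (vertical axis) against the GAPDH 3′ minus 5′ difference, the cyclophilin 3′ minus 5′ difference and the mean poly-A spike-in intensity (horizontal axes, log2), 1 point per array, with replicate numbers. Day 13 in vitro replicates 1 and 2 lie far to the left in the spike-in panel, at 9.27 and 10.50, and Day 13 in vivo replicate 2 lies among the in vitro arrays on the GAPDH axis, at 2.85, but not on the PAPOLA axis, at 7.41.

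The other members did not share the pattern by any call. At Day 13, in vitro against in vivo, 1.2% of all probe sets were called, and of the 12 member probe sets of genes other than PAPOLA 0 were called by limma, with 1 at an unadjusted p below 0.05. At Day 7, where 0.208% of all probe sets were called, 0 of the 12 were called and 2 had an unadjusted p below 0.05. No share of all probe sets was computed at that unadjusted cut, so nothing is read from these counts. Of the 12 member probe sets above background, the origins did not overlap at Day 13 for 1, PAPOLA, where 29.8% of all probe sets above background did not overlap. At Day 7 this held for 3 of the 12, PAPOLA, CPSF3 and 1 for CPSF6, where it held for 18.6% of all those above background. Without PAPOLA, which was chosen for its origin difference, the other 11 had a median in vitro minus in vivo difference of 0.19 at Day 13 and -0.02 at Day 7, beside 0.08 and 0.06 for all probe sets above background.

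The CPSF subunits act beside PAPOLA in the cleavage complex. CPSF3, the endonuclease that makes the cut, read 9.35, 9.67 and 9.44 in Day 13 in vitro pools, 9.30, 9.21 and 9.37 in Day 13 in vivo pools, 9.37, 9.44 and 9.38 in Day 7 in vitro pools and 9.94, 9.63 and 9.85 in Day 7 in vivo pools. The Day 7 in vivo pools were the high ones, and 2 of them stood above all 9 other arrays. In embryos made in vivo CPSF3 fell by 0.51 ± 0.10 at Day 13 against Day 7 (limma, adjusted p = 0.0257), a level 1.42-fold lower at Day 13 with no overlap. The call was lost in 10 of 22 alternatives, with adjusted p-values up to 0.191, and 5 of these left out a single array: replicates 1 and 2 of Day 13 in vivo, replicate 1 of Day 7 in vitro, and replicates 1 and 3 of Day 7 in vivo.

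In embryos made in vitro CPSF3 differed by 0.09 ± 0.10 between Day 13 and Day 7 (limma, adjusted p = 0.900). The difference of the 2 day effects, in vitro minus in vivo, was 0.60 ± 0.14 (limma, adjusted p = 0.162), which did not pass, and 0.4% of all probe sets were called in that comparison. At Day 7 the in vitro pools did not overlap the in vivo pools, with a difference of -0.41 ± 0.10 (limma, adjusted p = 0.286). The sign is opposite to that of PAPOLA on the same arrays.

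CPSF2, a non-cutting relative of CPSF3 in the same complex, read 10.73, 10.62 and 10.42 in Day 13 in vitro pools, 9.97, 8.91 and 10.61 in Day 13 in vivo pools, 10.35, 11.12 and 9.74 in Day 7 in vitro pools and 10.64, 10.77 and 10.93 in Day 7 in vivo pools. The low array was Day 13 in vivo replicate 2. All Day 13 in vivo pools lay under all Day 7 in vivo pools, but the difference of -0.95 ± 0.45 did not pass (limma, adjusted p = 0.417).

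CPSF1, the large subunit of the complex, was dim and variable. Its Day 13 in vitro pools read 5.94, 5.31 and 5.33 and its Day 13 in vivo pools 5.33, 7.53 and 5.70, while Day 7 in vitro pools read 7.57, 5.63 and 7.88 and Day 7 in vivo pools 6.69, 5.31 and 6.29. In 3 of the 4 groups the arrays spread over more than 1 log2 unit. The largest of its differences in the 4 group comparisons, -1.50 ± 0.75 for Day 13 in vitro against Day 7 in vitro, did not pass (limma, adjusted p = 0.344).

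CPSF6 encodes the larger partner of NUDT21 in cleavage factor I, a complex known for its part in choosing between alternative polyadenylation sites. Its brighter probe set read 11.40, 11.07 and 11.64 in Day 13 in vitro pools and 11.47, 11.54 and 11.09 in Day 13 in vivo pools. At Day 7 it read 11.62, 11.69 and 11.69 in in vitro pools and 11.17, 10.86 and 10.71 in in vivo pools. The Day 7 origins did not overlap, with a difference of 0.76 ± 0.18 that did not pass (limma, adjusted p = 0.253), while at Day 13 the difference was 0.005 ± 0.18 (limma, adjusted p = 1).

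The second CPSF6 probe set did not share this pattern, with a difference of -0.11 ± 0.42 at Day 7 (limma, adjusted p = 1). Its arrays ran from 9.16 to 10.87 at Day 13 and from 9.44 to 10.41 at Day 7, and the groups overlapped in each of the 4 comparisons. At Day 7 the interval of the second probe set, from -1.08 to 0.87, holds the brighter one's difference of 0.76. The 2 probe sets are thus not shown to differ, and neither passed in any comparison.

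CSTF2 encodes the CstF subunit that binds the sequence downstream of the cut. Its brighter probe set read 7.59, 7.67 and 6.01 in Day 13 in vitro pools, 6.48, 6.94 and 6.24 in Day 13 in vivo pools, 6.49, 6.36 and 7.24 in Day 7 in vitro pools and 6.65, 6.15 and 6.37 in Day 7 in vivo pools. The groups overlapped in every comparison. The differences were 0.54 ± 0.45 between origins at Day 13 (limma, adjusted p = 0.648) and 0.30 ± 0.45 at Day 7 (limma, adjusted p = 1). The second probe set stayed close to background, between 2.65 and 3.94.

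**Figure D3:**
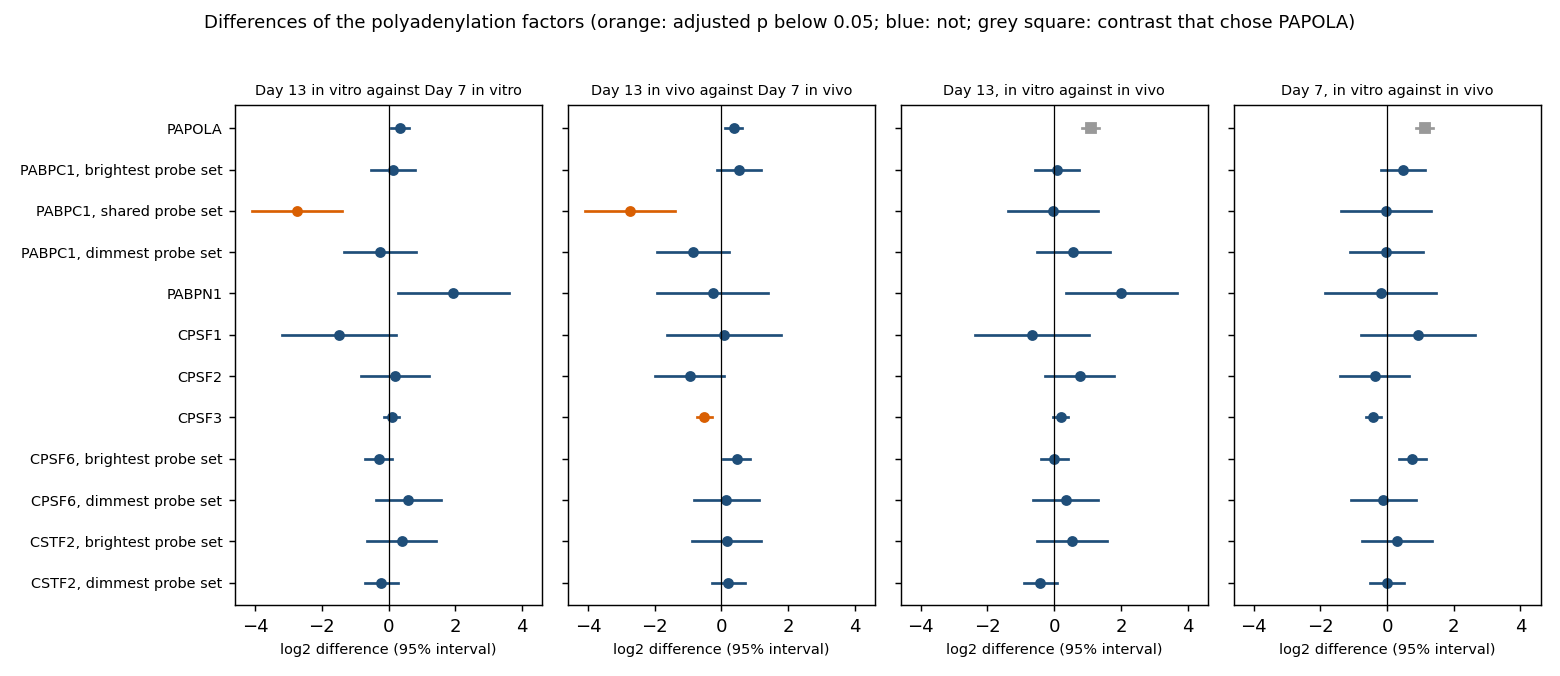
Log2 differences (horizontal axis, limma estimate and unadjusted 95% interval) of the 12 member probe sets above background in the 4 comparisons, the group named first minus the one named second. Orange marks an adjusted p below 0.05 (the shared PABPC1 probe set in both day comparisons, CPSF3 in the in vivo one), and grey squares mark PAPOLA in the comparisons that chose it, at 1.09 and 1.12.

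The poly(A)-binding proteins gave the largest day difference among the members. PABPC1, by a probe set shared with other transcripts, read 6.69, 5.54 and 6.69 in Day 13 in vitro pools, against 8.80, 9.85 and 8.49 in Day 7 in vitro pools. In embryos made in vivo it read 6.19, 6.10 and 6.73 at Day 13, against 9.52, 9.82 and 7.87 at Day 7. All 6 Day 13 arrays lay under all 6 Day 7 arrays, whatever the origin.

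This PABPC1 signal fell by 2.74 ± 0.59 at Day 13 in embryos made in vitro (limma, adjusted p = 0.0261) and by 2.73 ± 0.59 in embryos made in vivo (limma, adjusted p = 0.0414), levels 6.69-fold and 6.64-fold lower at Day 13. The origins differed by -0.03 ± 0.59 at Day 13, with an interval from -1.38 to 1.31, and by -0.02 ± 0.59 at Day 7, from -1.36 to 1.32. Averaged over both origins the difference was -2.74 ± 0.41 (limma, adjusted p = 0.00437), and of 21 alternatives only the GAPDH covariate ended that call (limma, adjusted p = 0.0594). Within each origin the call was less stable: it was lost in 10 of 22 alternatives in vitro and in 14 of 22 in vivo, of which 5 and 9 left out a single array, and the values stayed between -3.06 and -2.34 in vitro and between -3.33 and -2.11 in vivo. In vitro the single arrays were replicates 1 and 2 of Day 13 in vitro and all 3 of Day 7 in vitro. In vivo they were all 3 of Day 13 in vivo, replicates 1 and 2 of Day 7 in vivo, and replicates 1 and 3 of both in vitro groups.

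The suffix of that probe set's name marks probes shared by transcripts of more than 1 gene, so its signal is uncertain for PABPC1. The brightest PABPC1 probe set did not share the fall. It read 12.78, 12.44 and 12.13 in Day 13 in vitro pools and 12.07, 12.98 and 12.04 in Day 13 in vivo pools, against 12.20, 12.34 and 12.43 in Day 7 in vitro pools and 11.55, 11.79 and 12.22 in Day 7 in vivo pools.

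By that brightest probe set the day difference of PABPC1 was 0.13 ± 0.29 in vitro (limma, adjusted p = 1) and 0.51 ± 0.29 in vivo (limma, adjusted p = 0.554). A dim probe set for PABPC1 ran from 2.88 to 5.36 over all arrays, and its day differences of -0.26 ± 0.48 in vitro and -0.85 ± 0.48 in vivo did not pass (limma, adjusted p = 1 and 0.549). The PABPC1 probe sets thus disagree on the change with day.

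PABPN1 was close to background on all but 2 arrays. It read 7.55, 6.03 and 4.01 in Day 13 in vitro pools, against 4.04, 3.75 and 3.76 in Day 13 in vivo pools, 3.69, 4.04 and 4.04 in Day 7 in vitro pools and 4.04, 3.88 and 4.43 in Day 7 in vivo pools. The 2 high arrays are those with the lowest poly-A spike-ins. With all arrays its differences of 1.94 ± 0.72 for Day 13 in vitro against Day 7 in vitro and 2.01 ± 0.72 for in vitro against in vivo at Day 13 did not pass (limma, adjusted p = 0.174 and 0.221).

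Without Day 13 in vitro replicate 3 the PABPN1 differences were 2.87 against Day 7 in vitro and 2.94 against Day 13 in vivo (limma, adjusted p = 0.00347 and 0.00462). They were near or below 0, down to -0.51 and -0.77, without replicates 1 and 2 or in the fit that takes the spike-ins as covariate. Leaving out these replicates keeps 1 Day 13 in vitro array. The PABPN1 result rests on which Day 13 in vitro pools are counted.

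Over all members, 1 of 14 member probe sets was called for Day 13 in vitro against Day 7 in vitro, where 7.51% of all probe sets were. For Day 13 in vivo against Day 7 in vivo it was 2 of 14, where 3.79% of all probe sets were called. Of the 12 above background, the days did not overlap for 2 in vitro and 4 in vivo, where 44.4% and 30.6% of all probe sets above background did not. Averaged over both origins 2 members were called, PAPOLA higher and PABPC1 by the shared probe set lower at Day 13, where 9.72% of all probe sets were. For the difference of the day effect 0 of 14 were called by limma, where 0.4% of all probe sets were, with 2 at an unadjusted p below 0.05.

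The wider pathway was read from 6 lists of 86 genes, of which 48 were measured, each by its brightest probe set. For Day 13 in vitro against Day 7 in vitro 6 of the 48 were called, 4 higher and 2 lower, which is 12.5% where 10.8% of all 9155 genes were called. For Day 13 in vivo against Day 7 in vivo 0 of 48 were called by limma, with 15 at an unadjusted p below 0.05 and 5.49% of all genes called. Averaged over both origins, the contrast added after the values were seen, 7 of 48 were called, 4 higher and 3 lower, which is 14.6% where 14% of all genes were called. Between the origins 1 of 48 was called at Day 13 (1.64% of all genes) and 0 at Day 7 (0.295% of all genes), with 16 and 6 at an unadjusted p below 0.05. The day effect differed between origins for 0 of 48 by limma, with 4 at an unadjusted p below 0.05 and 0.513% of all genes called. The share of all genes at an unadjusted p below 0.05 was not computed, so those counts cannot be set against it.

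Among 13 other cleavage and polyadenylation factors, FIP1L1 was the 1 called gene in the 4 group comparisons. It was called for Day 13 in vitro against Day 7 in vitro, where 10.8% of all genes were. FIP1L1, the CPSF subunit that tethers the poly(A) polymerase, read 10.73, 10.22 and 11.15 in Day 13 in vitro pools against 12.04, 11.66 and 11.93 in Day 7 in vitro pools. It fell by 1.18 ± 0.23 at Day 13 (limma, adjusted p = 0.0173). A second probe set fell by 1.04 ± 0.26 (limma, adjusted p = 0.0450), while another, dim one differed by 0.55 ± 0.41 and did not pass. The call ended without Day 13 in vitro replicate 1 or without Day 7 in vitro replicate 1 or 3. In the fit with the spike-in covariate the difference was -0.71 (limma, adjusted p = 0.693). Without Day 13 in vitro replicates 1 and 2, with 1 array left in that group, it was -0.72. In embryos made in vivo the difference of FIP1L1 was -0.54 ± 0.23 (limma, adjusted p = 0.320), and the 2 day effects differed by -0.63 ± 0.32 (limma, adjusted p = 0.563).

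Among 8 other poly(A) and terminal nucleotidyl transferases 1 was called, in vitro between days and in the average over both origins. Of all genes 10.8% and 14% were called in these. TENT2, a cytoplasmic poly(A) polymerase that lengthens tails of stored messages in frog oocytes, read 9.08, 9.06 and 9.92 in Day 13 in vitro pools against 10.61, 10.79 and 10.41 in Day 7 in vitro pools, and fell by 1.25 ± 0.31 (limma, adjusted p = 0.0449). Leaving out any 1 of 10 of the 12 arrays, all but replicate 3 of Day 13 in vitro and replicate 2 of Day 13 in vivo, ended that call. With the spike-in covariate the difference was -0.74 (limma, adjusted p = 1). Without Day 13 in vitro replicates 1 and 2, with 1 array left in that group, it was -0.69.

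PAPOLA's own paralogs, named after their values were seen, did not show its pattern. PAPOLG, which encodes a second nuclear poly(A) polymerase, averaged 9.82 ± 0.32 (SD, n = 3) in Day 13 in vitro pools and 8.97 ± 0.78 in Day 13 in vivo pools, and 9.98 ± 0.04 in Day 7 in vitro pools and 10.05 ± 0.34 in Day 7 in vivo pools. Its origin difference was 0.85 ± 0.36 at Day 13 (limma, adjusted p = 0.297) and -0.07 ± 0.36 at Day 7 (limma, adjusted p = 1). PAPOLB, a testis form, was at background on all Day 13 arrays and above it on 1 Day 7 in vitro and 2 Day 7 in vivo arrays.

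Of 8 measured poly(A)-binding and PABP-interacting genes 2 were called higher for Day 13 in vitro against Day 7 in vitro. Of all genes 10.8% were called there, in either direction. EIF4E, the cap-binding protein that PABPC1 is linked to through EIF4G1, read 12.97, 12.51 and 12.12 in Day 13 in vitro pools against 10.78, 11.32 and 10.68 in Day 7 in vitro pools and rose by 1.61 ± 0.32 (limma, adjusted p = 0.0204). PAIP1, a partner of PABPC1 that promotes translation, read 12.34, 11.52 and 11.69 against 10.60, 10.98 and 10.17 in the same groups and rose by 1.27 ± 0.30 (limma, adjusted p = 0.0371). The EIF4E call ended without any 1 of 4 arrays, replicates 1 and 2 of Day 13 in vitro and replicates 1 and 3 of Day 7 in vitro, and the PAIP1 call without any 1 of 8, the same 4, replicate 1 of Day 13 in vivo and all 3 of Day 7 in vivo. With the spike-in covariate the difference of EIF4E was 0.77 (limma, adjusted p = 0.853) and that of PAIP1 0.70 (limma, adjusted p = 1). Without Day 13 in vitro replicates 1 and 2, with 1 array left in that group, the 2 differences were 1.20 and 1.11.

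At Day 13 all 8 of these genes had a higher mean in in vitro than in in vivo pools. Their median difference was 0.91, beside 0.09 for all genes above background. Of the 8, 0 passed, where 1.64% of all genes were called. At Day 7 the median was 0.06, beside 0.12 for all genes above background. For the difference of the day effect 7 of the 8 were positive, with a median of 0.87 beside -0.03. Again 0 passed, where 0.513% of all genes were called. The Day 13 in vitro group contains the arrays with low spike-ins, and their part in these medians was not tested.

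**Figure D4:**
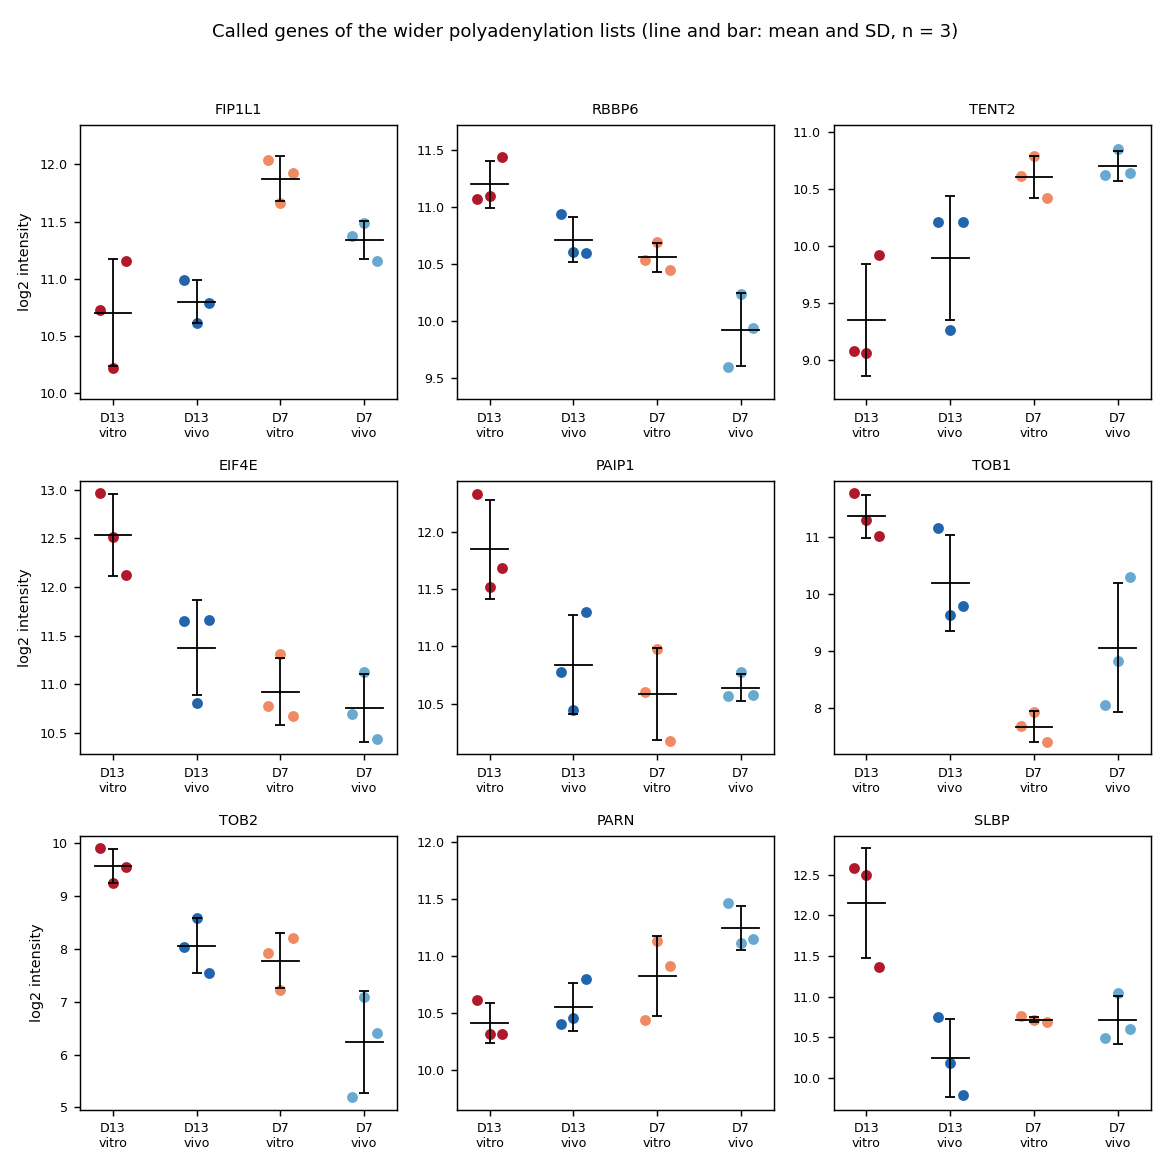
Log2 intensity (vertical axis, its own range in each panel) of the 9 genes called in the wider polyadenylation lists, by array in Day 13 in vitro pools, Day 13 in vivo, Day 7 in vitro and Day 7 in vivo pools, with the mean and SD of 3 arrays. FIP1L1 and TENT2 are lower and EIF4E, PAIP1, TOB1 and SLBP higher in Day 13 in vitro than in Day 7 in vitro pools, SLBP is also higher in Day 13 in vitro than in Day 13 in vivo pools, and RBBP6, TOB2 and PARN were called only in the day effect averaged over both origins.

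Tail removal was covered by 14 measured deadenylase subunits and adaptors. Of these 1 was called in the 4 group comparisons, for Day 13 in vitro against Day 7 in vitro (10.8% of all genes). TOB1, an adaptor that brings the CCR4-NOT deadenylase to PABPC1, read 11.77, 11.30 and 11.02 in Day 13 in vitro pools against 7.68, 7.93 and 7.40 in Day 7 in vitro pools and rose by 3.69 ± 0.59 (limma, adjusted p = 0.00821), a 12.9-fold higher level. Its second probe set rose by 3.83 ± 0.48 (limma, adjusted p = 0.00242). No single array ended the TOB1 call, though the spike-in covariate did (3.18, limma, adjusted p = 0.294). Without Day 13 in vitro replicates 1 and 2, with 1 array left in that group, the difference was 3.35.

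In embryos made in vivo TOB1 read 11.16, 9.62 and 9.79 at Day 13 against 8.06, 8.83 and 10.29 at Day 7, a difference of 1.13 ± 0.59 that did not pass (limma, adjusted p = 0.492). The 2 day effects differed by 2.56 ± 0.84 (limma, adjusted p = 0.319). By its second probe set TOB1 was higher at Day 13 in vivo by 1.83 ± 0.48, with no overlap between the days. That difference did not pass either (limma, adjusted p = 0.089). The 2 day effects of the second probe set differed by 1.996 ± 0.67 (limma, adjusted p = 0.336).

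The day effect averaged over both origins called FIP1L1, TENT2, EIF4E and TOB1 and added 3 genes. TOB2, a relative of TOB1, read 9.90, 9.24 and 9.55 in Day 13 in vitro pools and 8.04, 8.59 and 7.55 in Day 13 in vivo pools, against 7.91, 7.21 and 8.21 in Day 7 in vitro pools and 5.19, 7.10 and 6.41 in Day 7 in vivo pools. The days did not overlap within either origin, and the averaged difference was 1.81 ± 0.35 (limma, adjusted p = 0.0139). That call ended with either covariate. With these, and without Day 13 in vitro replicates 1 and 2, which leaves 1 array in that group, the values ran from 1.46 to 1.80. TOB2's second, dim probe set gave the same 4.04 on all 3 Day 7 in vitro arrays (SD 0). Little can thus be read from its difference of 0.06 ± 0.37 (limma, adjusted p = 1).

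RBBP6, known in human cells to stimulate cleavage, read 11.07, 11.10 and 11.44 in Day 13 in vitro pools and 10.94, 10.61 and 10.60 in Day 13 in vivo pools, against 10.54, 10.70 and 10.45 in Day 7 in vitro pools and 9.60, 10.24 and 9.95 in Day 7 in vivo pools. Its averaged difference was 0.72 ± 0.13 (limma, adjusted p = 0.00898), a call that ended after centring on ribosomal protein genes (0.55, limma, adjusted p = 0.159) or with the spike-in covariate. A second RBBP6 probe set differed by 0.46 ± 0.28 (limma, adjusted p = 0.449). Within origins it differed by -0.34 ± 0.39 in vitro and 1.27 ± 0.39 in vivo (limma, adjusted p = 0.917 and 0.1545). The brightest probe set gave 0.64 and 0.79, so the 2 differ in sign in vitro. PARN, a poly(A)-specific ribonuclease, fell by 0.55 ± 0.14 (limma, adjusted p = 0.0399). Leaving out any 1 of 10 arrays ended the PARN call, all but replicate 3 of Day 13 in vivo and replicate 1 of Day 7 in vitro.

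Histone messages end without a poly(A) tail, in a stem-loop that SLBP binds. SLBP was the 1 called gene of 3 measured for that route (all genes: 10.8% between days in vitro, 1.64% between Day 13 origins). It read 12.58, 12.50 and 11.37 in Day 13 in vitro pools, against 10.75, 10.19 and 9.79 in Day 13 in vivo pools, and the Day 7 arrays of both origins lay between 10.49 and 11.04.

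SLBP rose by 1.43 ± 0.35 for Day 13 in vitro against Day 7 in vitro (limma, adjusted p = 0.0458) and was 1.90 ± 0.35 higher in in vitro than in in vivo pools at Day 13 (limma, adjusted p = 0.0474). With the spike-in covariate these differences were 0.49 and 0.84 (limma, adjusted p = 1 for both). Without the pair of low-spike arrays, Day 13 in vitro replicates 1 and 2, they were 0.65 and 1.12, with 1 array left in that group. Each call ended without any 1 of 10 arrays. The calls held without replicate 3 of Day 13 in vitro and without replicate 1 of Day 13 in vivo. The cytoplasmic polyadenylation list had 2 measured genes of 11. Of these 0 were called by limma in any comparison, where 0.295% to 14% of all genes were called. At an unadjusted p below 0.05 there was 1, in the origin comparison at Day 13. CPEB4, which binds messages to control their tails, had an in vitro minus in vivo difference of 3.13 at Day 13 (limma, adjusted p = 0.230) and 1.52 at Day 7 (limma, adjusted p = 0.842). AURKA, a kinase of the same route in frog oocytes, had 0.15 and 0.12, beside medians of 0.09 and 0.12 for all genes above background.

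Levels over the 12 arrays were compared with PAPOLA by Pearson correlation for 6844 single-symbol probe sets above background. Placeholder symbols among these were then left out, and 5 genes ran most like PAPOLA among the rest. They were FAM76B (r = 0.905), MRPL50 (r = 0.894), a mitochondrial ribosomal protein, LDHA (r = 0.891), the lactate dehydrogenase of glycolysis, PIGN (r = 0.889), an enzyme of membrane anchor synthesis, and PGK1 (r = 0.873), a glycolytic kinase. LDHA averaged 13.98 ± 0.30 (SD, n = 3) in Day 13 in vitro pools, 13.22 ± 0.21 in Day 13 in vivo pools, 13.67 ± 0.39 in Day 7 in vitro pools and 12.42 ± 0.10 in Day 7 in vivo pools, the same order of groups as PAPOLA. PIGN differed in that its Day 13 in vivo mean of 8.14 ± 0.37 was under its Day 7 in vivo mean of 8.26 ± 0.16.

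No member came near these values: the correlation of the other 11 member probe sets above background with PAPOLA ran from -0.37 for CPSF3 to 0.65 for CPSF6 by its brighter probe set. The arrays share their groups and their labelling, so these correlations describe likeness over 12 arrays and nothing further.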

How the data were processed

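The authors deposited 1 normalized log2 intensity per probe set and array. Per the submitters' processing notes RMA, GCRMA and limma were used, with no versions and no word on which of RMA and GCRMA made the values, so it is not known how far background correction compressed low signals. Per the labels' protocols each array took 75 ng of total RNA through 2 cycles of amplification. The table held 24128 probe sets, of which 112 controls were kept out of the tests. Of the other 24016, 13292 carried 1 gene symbol, 86 several and 10638 none in the platform annotation, and 13263 of the single symbols matched RefSeq.

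A model with 4 group means was fitted to all 12 arrays with limma 3.58.1 (lmFit and eBayes, no trend) in R 4.3.3. Tests were two-sided, with p-values adjusted over all 24016 by Benjamini and Hochberg's method and a call below 0.05. Counts at an unadjusted p below 0.05 are given without the share over all probe sets or genes, so they cannot show whether there is an excess. Errors of differences are SE, errors of levels SD. Background was the 99th percentile of 48 control probe sets.

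The members, the 6 wider lists, the markers and the tests were chosen with earlier results of these data known. Named were all members, up to 3 called genes per list and comparison with the smallest adjusted p, and the 5 genes most like PAPOLA. Placeholder symbols were left out.

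Same-numbered arrays of different groups were checked as pairs: of 18 pairs, 3 correlated above 0.1 after group means were removed (median r = -0.06), so no pairing was used. Alternatives were quantile normalization, 2 centrings, a variance trend, a replicate block, 2 covariates and a filter on dim probe sets. Others were fits of the compared groups only, and the loss of single arrays or of Day 13 in vitro replicates 1 and 2. The loss of this pair leaves 1 array in the Day 13 in vitro group. The spike-in covariate was lowest in that same group and cannot be fully told apart from it. On simulated data of 24016 probe sets, a log2 change of 1 was recovered in 10% of changed probe sets for Day 13 against Day 7 in vitro, 8% for the same days in vivo, 18% between origins at Day 13 and 4% at Day 7, and a change of 4 in 74%, 70%, 84% and 76%, with 1 to 6 false calls. The simulation changed 50 probe sets at each size and kept equal group means for all others. The day comparisons called 1804 probe sets in vitro and 911 in vivo, so these shares do not give their power. The number of arrays limits the precision.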

Additional observations from a re-analysis of the deposited data

How the results depend on the processing

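The number of called member probe sets depended on the setting. For Day 13 in vitro against Day 7 in vitro it was 1, and 0 with the poly-A spike-in covariate, the GAPDH covariate, only the 2 groups compared in the fit, or without Day 13 in vitro replicates 1 and 2; leaving out single arrays gave 0 to 2. For Day 13 in vivo against Day 7 in vivo it was 2, and 1 after quantile normalization, 1 with the spike-in covariate, 0 with the GAPDH covariate, 1 with the filter on dim probe sets, 0 with only the 2 groups, and 1 without Day 13 in vitro replicates 1 and 2; single arrays gave 0 to 2. The calls between origins are PAPOLA's own, in the comparisons that chose it, so these counts describe the choice and test nothing. At Day 13 it was 1, and 0 with the spike-in covariate or only the 2 groups; single arrays gave 1 to 2, the second being PABPN1. At Day 7 it was 1, and 0 with ribosomal centring, the GAPDH covariate, only the 2 groups, or without Day 13 in vitro replicates 1 and 2; without any single array it stayed at 1. For the difference of the day effect it was 0, and 0 to 1 without single arrays.

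No pairing of replicate numbers was found, with same-numbered pairs from -0.65 to 0.43. With a replicate block the called members were 0 for Day 13 in vitro against Day 7 in vitro, 0 for the same days in vivo and 0 for the origins at Day 7, with 1 at Day 13. Over all probe sets the counts called ran from 197 to 2898, 241 to 1538, 0 to 2058, 3 to 116 and 11 to 1083 over the alternatives, against 1804, 911, 288, 50 and 96, in the order Day 13 against Day 7 in vitro, the same in vivo, the origins at Day 13, the origins at Day 7, and the difference between day effects. Ribosomal centring shifted the median of probe sets above background by 0.07, -0.40, 0.11, -0.35 and 0.46 in these comparisons. Of 2730 single values recomputed, 2493 kept side and direction, 160 lost a call, 20 gained one, 57 moved without a call and 0 reversed a call. The cause of the lost calls was not tested.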
